A study of Mus musculus with 45 samples.

Results

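Pbx2, Pbx3, Meis1, Meis2 and Meis3 are 5 homeobox genes that encode DNA-binding proteins of the TALE class. All 5 named genes were found, by symbol and Ensembl identifier, among the 15897 genes measured in the mouse hippocampus. They were chosen because Pbx3 had the clearest diet difference of all genes, so the diet values below are descriptions without a test. The genotype differences, the interactions and the relations between mice were not the rule of the choice and were tested. A clearest diet difference favours a gene with a small interaction and a small spread between mice. For Pbx3 the interaction tests are thus not independent of the choice, and the SE of its genotype differences may be too small.

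TALE proteins carry a homeodomain with an extra loop between its helices. Pbx proteins bind DNA together with Hox proteins and with Meis or Prep partners, and binding to Meis keeps Pbx in the nucleus. In the forebrain these genes are known for patterning the embryo and for the identity of neurons, and several remain expressed in adult neurons.

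RNA was sequenced from the hippocampus of 45 female mice of the C57Bl/6J strain, 1 library a mouse. There were 4 genotypes. AwTw mice were wild-type littermates. AwT+ mice carried human tau with the P301L mutation under the CaMKII promoter. A+Tw mice carried APPswe/PS1dE9, a mouse/human APP695 with the Swedish mutations and a human PS1 lacking an exon, under the mouse PrP promoter. A+T+ mice came from crossing these lines and carried both transgenes. From 7 months of age until sacrifice at 13 months, the mice ate standard diet (STD, 5% fat by weight and 0% cholesterol) or typical Western diet (TWD, 21% fat, 0.15% cholesterol and 35% sucrose). On TWD there were 6 mice of each genotype. On STD there were 6 each of AwTw and AwT+, 5 of A+Tw and 4 of A+T+. Batch 0 of the labels holds 20 mice (8 on STD and 12 on TWD) and batch 1 holds 25 (13 on STD and 12 on TWD).

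Values are log2-like, transformed by the authors with batch removed, and the median of a mouse lay between 8.05 and 8.31. As a check of the labels, App was 0.90 (log2) higher in A+ than in Aw mice (SE 0.0486), Prnp, whose promoter drives that transgene, was 1.11 higher (SE 0.0452) and the microglial gene Cst7 was 4.13 higher (SE 0.0962). Mouse Mapt differed by 0.06 between T+ and Tw mice (SE 0.0549), so no gene here checks the tau label.

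The stretch of the coding sequence below runs from the loop that defines the TALE class to the end of the recognition helix, the part of the protein that touches DNA. It shows how alike the members are where they bind DNA. Capitals mark the 4 codons of the helix that start with tryptophan and end with asparagine. Sequences are from GENCODE M21 (GRCm38), 5′ to 3′ on the coding strand, 96 bases each:
Pbx2: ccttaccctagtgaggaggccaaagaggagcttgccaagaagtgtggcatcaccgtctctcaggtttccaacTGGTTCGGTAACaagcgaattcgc
Pbx3: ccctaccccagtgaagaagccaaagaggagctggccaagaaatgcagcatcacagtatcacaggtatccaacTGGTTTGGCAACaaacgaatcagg
Meis1: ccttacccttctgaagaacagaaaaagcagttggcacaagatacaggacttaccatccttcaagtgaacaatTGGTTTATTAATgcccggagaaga
Meis2: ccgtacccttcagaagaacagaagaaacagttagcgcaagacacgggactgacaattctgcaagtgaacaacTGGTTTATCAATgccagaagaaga
Meis3: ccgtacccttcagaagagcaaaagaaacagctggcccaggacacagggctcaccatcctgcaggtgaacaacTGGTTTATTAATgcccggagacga

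The Pbx pair shared 81.2% of these bases, and each pair of Meis genes shared 83.3%. A Pbx and a Meis gene shared 49.0% to 59.4%. Over the whole transcripts that were read here, the longest identical run between any pair of members was 28 bases, between Meis2 and Meis3, which is shorter than a sequenced read. The 96 bases lie in exons 5 and 6 of the Pbx transcripts and in exons 9 and 10 of the Meis transcripts, so each stretch spans an intron of the genome.

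Pbx3 (ENSMUSG00000038718) lies on the minus strand at chr2:34171457-34373142 and its stretch falls within chr2:34178310-34204842. Meis2 (ENSMUSG00000027210) is on the same chromosome and strand, at chr2:115863064-116065839, with its stretch within chr2:115868782-115921745. Meis1 (ENSMUSG00000020160) is on the minus strand at chr11:18879817-19018985, with its stretch within chr11:18885630-18905762. Pbx2 (ENSMUSG00000034673) is on the plus strand at chr17:34591266-34597400, with its stretch within chr17:34594655-34594833. Meis3 (ENSMUSG00000041420) is on the plus strand at chr7:16175090-16186504, with its stretch within chr7:16183794-16184059. The genes differ in size, with spans of 6.1 kb for Pbx2 and 11.4 kb for Meis3 against 139.2 kb for Meis1, 201.7 kb for Pbx3 and 202.8 kb for Meis2. Pbx2 shares 489 bases with Gpsm3 on the same strand, and Gpsm3 is also among the genes measured, so reads from those bases are uncertain. Pbx3 and Meis1 overlap annotated genes that are not among those measured.

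Pbx3, a Pbx protein whose loss in mice impairs the central control of breathing, was lower on TWD in every genotype. In AwTw mice it ranged from 6.71 to 7.73 on STD (median 7.27) and from 6.45 to 7.26 on TWD (median 6.73). In AwT+ mice it ranged from 6.90 to 7.73 on STD (median 7.35) and from 6.57 to 7.48 on TWD (median 6.85). The diets overlapped in these mice, which lack the APPswe/PS1dE9 transgene.

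In A+Tw mice the STD values of Pbx3 were 6.80, 6.89, 7.00, 7.26 and 7.28, and the TWD values ran from 6.34 to 6.75 (median 6.54). In A+T+ mice the STD values were 7.18, 7.31, 7.34 and 7.41, and the TWD values ran from 6.33 to 7.00 (median 6.67). In both genotypes with the transgene, every TWD mouse was below every STD mouse. Such a lack of overlap was met in 0.164% of all genes for A+Tw and 0.528% for A+T+, and in 0.352% of genes for AwTw and 0.937% for AwT+. Pbx3 was chosen on the diet contrast, so nothing is read from these shares.

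**Figure D1:**
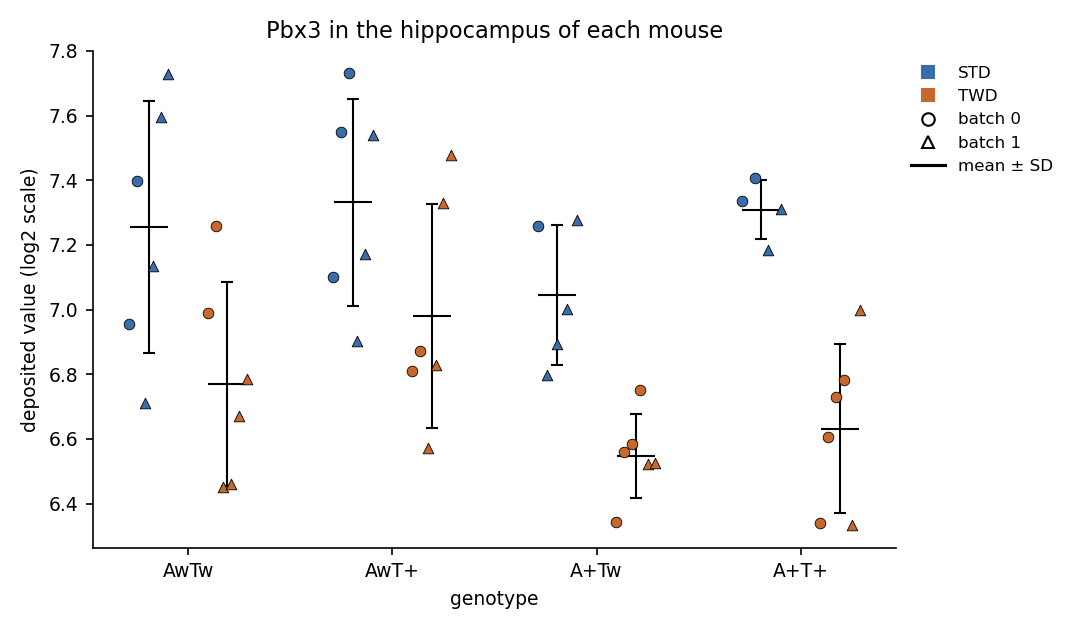
Deposited value of Pbx3 (log2 scale) in each mouse, by genotype and diet; points are mice, circles batch 0, triangles batch 1, bars the mean ± SD. The TWD mice (orange) lie lower than the STD mice (blue) in each genotype, with no overlap in A+Tw and A+T+.

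On TWD, 23 of 24 mice were below the median of the STD mice of their own genotype. Within batch 0 the count was 11 of 12, and within batch 1 it was 10 of 12, each against the STD mice of the same genotype and batch. Here and in the counts by batch below, the STD side in batch 0 was only 1 mouse for A+Tw. It was 2 mice each for AwTw and A+T+. Over all genotypes the log2 difference of Pbx3 was -0.50 (SE 0.0845, 95% CI -0.67 to -0.33), the first of 15897 genes in the order by unadjusted p. Next in that order came Sept1, a septin, which was 0.33 higher on TWD (SE 0.0618). Of all genes, 29.4% passed an adjusted p of 0.05 in this contrast, 16.0% higher and 13.4% lower on TWD. The 1 of 5 members among them is Pbx3, which was chosen on this contrast, so nothing is read from that count. The share rests on 4678 genes, a number that was 0 in batch 0 alone, 6498 in batch 1 alone, 2768 without AwTw/TWD replicate 3 and 2856 without AwT+/TWD replicate 3.

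By genotype, the difference of Pbx3 was -0.48 in AwTw (SE 0.163) and -0.33 in AwT+ mice (SE 0.164). With the APPswe/PS1dE9 transgene it was -0.54 in A+Tw (SE 0.176) and -0.69 in A+T+ mice (SE 0.183). In AwTw mice 9.35% of all genes passed and 0 of 5 members did, and in each of the other genotypes 0% of genes and 0 of 5 members passed. The 1487 genes of AwTw were 0 to 3982 over the alternatives and 0 to 6072 with 1 mouse left out, so nothing is read from the members' count there either. At an unadjusted p under 0.05 limma gave 6391 genes for AwTw, 1183 for AwT+, 705 for A+Tw and 409 for A+T+. Over all genotypes the Pbx3 difference was -0.55 (SE 0.115) in batch 0 alone and -0.47 (SE 0.130) in batch 1 alone. Both batches entered the contrast on which Pbx3 was chosen, so nothing is read from a fall in each. In AwTw mice of batch 0 (2 on each diet) the difference was -0.05 (SE 0.220). In hippocampal tissue, fewer cells with Pbx3 and less Pbx3 RNA per cell cannot be told apart.

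The 4 STD groups were the highest of the 8 groups for Pbx3 and the 4 TWD groups the lowest. From high to low, at the mean of both batches, they ran AwT+/STD (7.33), A+T+/STD (7.31), AwTw/STD (7.27), A+Tw/STD (7.08), AwT+/TWD (7.00), AwTw/TWD (6.79), A+T+/TWD (6.61) and A+Tw/TWD (6.53). Every gap between neighbours in that order was smaller than the spread within groups (pooled SD 0.285), the widest being 0.74 of it, between AwT+/TWD and AwTw/TWD.

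Pbx2, a broadly expressed Pbx protein, went the other way. In AwTw mice it ran from 9.38 to 10.01 on STD (median 9.62) and from 9.70 to 10.15 on TWD (median 9.89), and in AwT+ mice from 9.61 to 9.86 (median 9.65) and from 9.49 to 9.94 (median 9.82). In A+Tw mice it ran from 9.45 to 10.01 on STD (median 9.84) and from 9.65 to 10.13 on TWD (median 9.78), and in A+T+ mice from 9.30 to 9.68 (median 9.63) and from 9.58 to 10.13 (median 9.64). The diets overlapped in every genotype.

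The diet difference of Pbx2 over all genotypes was 0.15 (SE 0.0576, 95% CI 0.03 to 0.26), with 0.0063 in batch 0 and 0.27 in batch 1. It was 0.28 in AwTw mice (SE 0.111), and it was 0.10 for AwT+, 0.02 for A+Tw and 0.16 for A+T+ (SE 0.111 to 0.124). On TWD, 16 of 24 mice were above the STD median of their genotype. Against the STD mice of the same batch, the count was 5 of 12 in batch 0 and 11 of 12 in batch 1.

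Meis3, a Meis protein and Pbx partner, was also higher on TWD in most mice. In AwTw mice it ran from 8.63 to 9.28 on STD (median 8.77) and from 8.80 to 9.76 on TWD (median 9.25), and in AwT+ mice from 8.57 to 9.06 (median 8.86) and from 8.75 to 9.42 (median 9.03). In A+Tw mice it ran from 8.75 to 9.39 on STD (median 8.98) and from 8.96 to 9.46 on TWD (median 9.16). In A+T+ mice the STD values were close together (9.01 to 9.21, median 9.10) and lay within those on TWD (8.64 to 9.50, median 9.09).

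The diet difference of Meis3 over all genotypes was 0.19 (SE 0.0781, 95% CI 0.03 to 0.35), with overlap in every genotype. In batch 0 it was 0.05 and in batch 1 it was 0.31. It was 0.44 in AwTw mice (SE 0.146), 0.16 for both AwT+ (SE 0.147) and A+Tw (SE 0.158), and -0.04 for A+T+ (SE 0.164). On TWD, 18 of 24 mice were above the STD median of their genotype. Within batches the count was 7 of 12 in batch 0 and 10 of 12 in batch 1.

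Meis1, a cofactor of Hox and Pbx proteins, had a small diet difference. On STD its group medians were 5.84 in AwTw, 5.95 in AwT+, 5.92 for A+Tw and 5.83 for A+T+, with single mice from 5.26 to 6.31. On TWD they were 5.94 in AwTw, 5.79 in AwT+, 5.80 for A+Tw and 5.79 for A+T+, with single mice from 5.32 to 6.19. The diets overlapped in every genotype, and the difference was -0.09 (SE 0.0748, 95% CI -0.24 to 0.06). It was 0.07 in batch 0 and -0.16 in batch 1.

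Meis2, a Meis protein of striatal and other forebrain neurons, varied the most between mice of a group (pooled SD 0.421). On STD its group medians were 9.53 in AwTw, 9.78 in AwT+, 9.45 for A+Tw and 9.54 for A+T+, with single mice from 8.82 to 10.27. On TWD they were 9.66 in AwTw, 9.67 in AwT+, 9.26 for A+Tw and 9.57 for A+T+, with single mice from 8.31 to 10.31. The diets overlapped in every genotype, and the difference was -0.0046 (SE 0.121, 95% CI -0.25 to 0.24). It was -0.16 in batch 0 and 0.18 in batch 1.

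**Figure D2:**
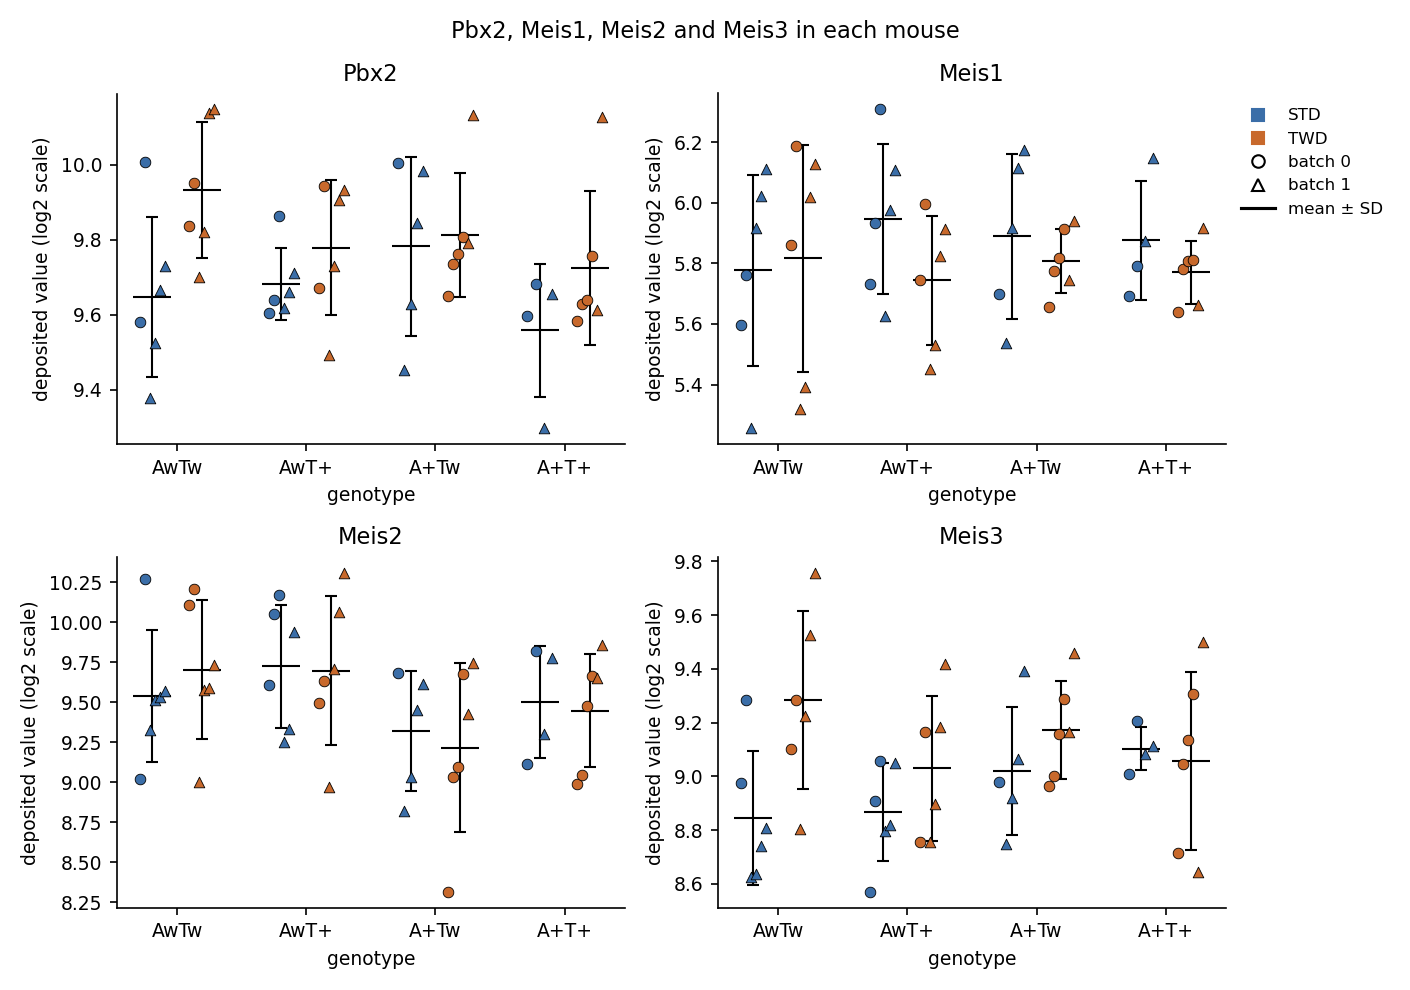
Deposited values (log2 scale) of Pbx2, Meis1, Meis2 and Meis3 in each mouse, by genotype and diet; points are mice (circles batch 0, triangles batch 1) and bars the mean ± SD. The diets overlap in all 4 genes and every genotype.

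**Figure D3:**
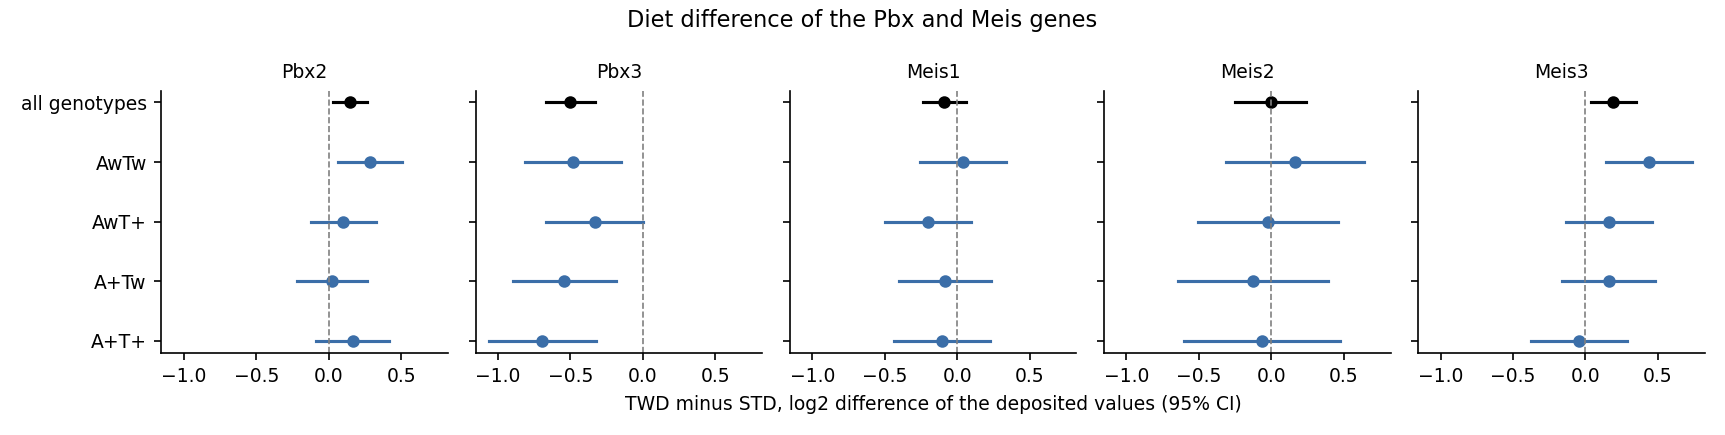
Log2 difference TWD minus STD of each member with its 95% confidence interval, over all genotypes (black) and in each genotype (blue). Pbx3 lies below 0 throughout, from -0.33 in AwT+ to -0.69 in A+T+, and Meis3 is farthest above 0 in AwTw at 0.44.

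In the order of the 8 groups, the highest Pbx2 group was AwTw/TWD (9.94 at the mean of both batches) and the lowest A+T+/STD (9.56). For Meis3 the highest was AwTw/TWD (9.28) and the lowest AwTw/STD (8.84). Neighbours in the order of the 8 groups differed by less than the pooled SD in all 5 members.

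Whether the diet difference depends on genotype was tested by an interaction in limma. For no member did it pass (moderated F, smallest adjusted p = 0.980), and 0% of all genes passed (0 genes, with 292 at an unadjusted p under 0.05). The nearest single term was Meis3, whose diet difference was 0.48 lower in A+T+ than in AwTw mice (log2 difference -0.48, SE 0.220, limma adjusted p = 0.560). Pbx3 gave -0.21 for the same term (SE 0.246, 95% CI -0.71 to 0.29), an interval that holds both no difference and one as large as its diet difference in AwTw. Whether the diet difference depends on batch was also tested, and no member and 0% of genes passed (0 genes in limma, with 4456 at an unadjusted p under 0.05). The smallest adjusted p of a member was 0.132, for Pbx2, whose diet difference was 0.28 higher in batch 1 (SE 0.113). For Pbx3 neither interaction is independent of the choice, so nothing is read from its failure to pass.

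The genotype comparisons ask whether amyloid or tau transgenes move these genes, and the rule of the choice did not use them. In the 6 comparisons of a transgenic genotype with AwTw mice on the same diet, 0 of 5 members passed in limma. Across all genes, 0% passed for AwT+ on either diet (0 genes, with 380 on STD and 484 on TWD at an unadjusted p under 0.05). The shares were 0.925% for A+Tw on STD, 1.32% for A+T+ on STD, 0.824% for A+Tw on TWD and 0.730% for A+T+ on TWD. The members' log2 differences ran from -0.50 to 0.26 over the 6 comparisons. Only Meis2 in A+Tw mice on TWD had an unadjusted p under 0.05, with -0.50 (SE 0.241, limma adjusted p = 0.942). It was -1.13 in batch 0 (SE 0.349) and 0.11 in batch 1 (SE 0.298).

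Over both diets, A+ mice had 0.21 less Pbx3 than Aw mice on the log2 scale (difference -0.21, SE 0.0861, 95% CI -0.39 to -0.04), which did not pass in limma (adjusted p = 0.206). Meis2 differed by -0.30 (SE 0.125, 95% CI -0.55 to -0.05, limma adjusted p = 0.230). Pbx2 (-0.04), Meis1 (0.01) and Meis3 (0.08) were nearer to 0. Thus 0 of 5 members passed, against 3.77% of all genes (3.11% higher and 0.661% lower). The Pbx3 difference was -0.20 in batch 0 and -0.18 in batch 1, whereas that of Meis2 was -0.46 in batch 0 and -0.03 in batch 1.

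Between T+ and Tw mice, Pbx3 differed by 0.15 (SE 0.0859), Meis2 by 0.14 (SE 0.125), Meis1 by 0.01 (SE 0.0767), Meis3 by -0.06 (SE 0.0769) and Pbx2 by -0.11 (SE 0.0581). None of the 5 passed in limma, where the smallest adjusted p was 0.997. Of all genes, 0.0189% passed, 3 in number, and 819 had an unadjusted p under 0.05.

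**Figure D4:**
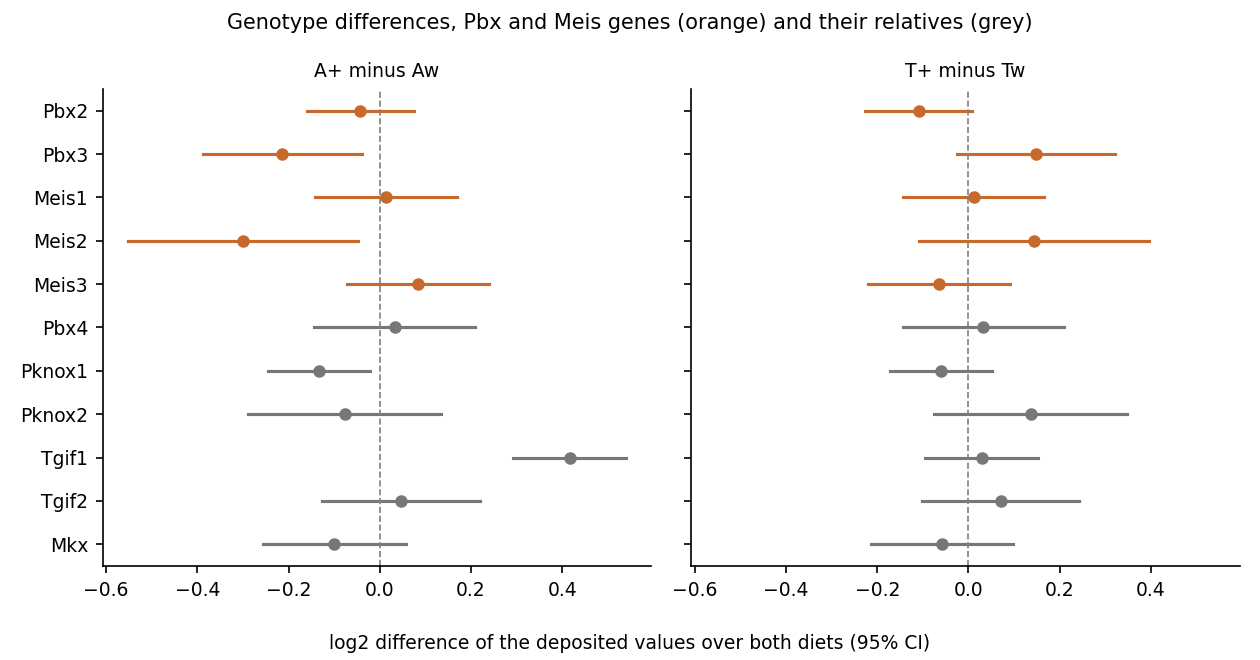
Log2 differences over both diets with 95% confidence intervals, A+ minus Aw (left) and T+ minus Tw (right), for the 5 members (orange) and the relatives named in the text (grey). Tgif1 stands to the right in A+ mice at 0.42, and the members lie between -0.30 and 0.15.

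Of 13 other TALE genes that were looked for, 7 were among the genes measured. Tgif1, a corepressor of TGF-beta and retinoid signalling, was higher in A+ than in Aw mice. In AwTw mice it ran from 5.53 to 5.96 on STD (median 5.86) and from 5.30 to 6.22 on TWD (median 5.93), and in AwT+ mice from 5.50 to 5.92 (median 5.80) and from 5.90 to 6.29 (median 5.99). In A+Tw mice it was 6.19, 6.26, 6.42, 6.55 and 6.56 on STD and 5.78 to 6.33 on TWD (median 6.25). In A+T+ mice it was 6.17, 6.21, 6.28 and 6.48 on STD and 6.09 to 6.43 on TWD (median 6.33).

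On STD the A+ and Aw mice did not overlap in Tgif1, and on TWD they did. The share of all genes without such overlap was not computed, so nothing is read from it. The difference over both diets was 0.42 (SE 0.0614, limma adjusted p = 4.45e-06), and it was 0.51 in batch 0 and 0.37 in batch 1. It was the 1 relative of 7 that passed in this contrast, against 3.77% of all genes. Microglial marker genes moved with it, as 8 of 10 were called higher in A+ mice, against 3.11% of all genes. In all, 10 of 10 lay above 0 (median 0.78). Their part in the Tgif1 difference was not tested.

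In the diet contrast, 1 of 7 relatives passed, against 29.4% of all genes. Pbx4 was 0.23 higher on TWD (SE 0.0843, limma adjusted p = 0.0374), but the call was lost without any 1 of 15 of the 45 mice, which come from all 8 groups. The lowest of these values was 0.20 (limma adjusted p = 0.0715), without AwTw/TWD replicate 3. Its difference was 0.04 in batch 0 and 0.36 in batch 1. Pknox1 (-0.02), Pknox2 (-0.10), Tgif1 (0.05), Tgif2 (-0.11) and Mkx (0.04) did not pass.

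None of 39 Hox genes that were looked for was among the genes measured. Of 14 other partners and cofactors, 13 were measured, and 2 rose on TWD, against 29.4% of all genes called and 16.0% higher. They were Hdac1, a histone deacetylase (0.18, SE 0.0476, limma adjusted p = 0.0157), and Emx1, a homeobox gene of cortical neurons (0.26, SE 0.0840, limma adjusted p = 0.0236). Pbxip1, which binds Pbx and hinders its activity, was 0.27 higher in A+ mice (SE 0.0705, limma adjusted p = 0.0152), the 1 of 13 partners called there, against 3.77% of all genes. The call was lost with the choroid plexus score as a covariate (0.18, limma adjusted p = 0.128). In A+ against Aw mice 15 of 15 choroid plexus markers lay above 0 (median 0.79, 0 called). In T+ against Tw mice 15 of 15 did so too (median 0.92, 0 called). The part of choroid plexus tissue in the Pbxip1 difference was not tested. The Pbxip1 difference was 0.19 in batch 0 and 0.40 in batch 1.

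Of 10 genes listed as reported Pbx or Meis targets, 9 were measured and 3 passed in the diet contrast, near the 29.4% of all genes. In all, 1 rose and 2 fell. Cdkn1a, a cell-cycle inhibitor, rose (0.39, SE 0.111, limma adjusted p = 0.0164). Hif1a, the hypoxia factor, fell (-0.60, SE 0.173, limma adjusted p = 0.0172), and Dcx, a marker of young neurons, fell (-0.53, SE 0.181, limma adjusted p = 0.0285). In batch 0 alone these were 0.05, -0.12 and -0.09, and in batch 1 they were 0.63, -1.01 and -0.96. The Dcx call was lost without AwTw/TWD replicate 1 (-0.47), AwTw/TWD replicate 3 (-0.47) or AwT+/TWD replicate 3 (-0.50). Hlf, a PAR bZip factor, was 0.39 lower in A+ mice (difference -0.39, SE 0.0842, limma adjusted p = 0.00237) and was the 1 of 9 called there, against 3.77% of all genes. In the diet contrast the median over the 13 partners was 0.01 and over the 9 targets -0.07, beside -0.0014 over all genes.

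Much of the variation between mice of a group ran along 1 component, the first principal component of what the fit of the 8 groups left over. Each mouse was given a score on it from its deposited values, in which group differences remain. The score was 0.451 ± 0.845 (SD, n = 21) on STD and -0.394 ± 0.972 (SD, n = 24) on TWD. In batch 0 the means were 0.110 and -0.0731, and in batch 1 they were 0.661 and -0.716, so the score moved with diet mainly in batch 1.

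Meis3 and Pbx2 followed this score closely, with r = -0.847 and r = -0.790 over the 45 mice once group and batch were removed. Pbx3 (r = 0.406), Meis1 (r = 0.362) and Meis2 (r = -0.246) followed it less. These values share the libraries and are descriptions. With the score as a covariate, the diet difference of Pbx3 was -0.41 (SE 0.0872), that of Pbx2 was 0.02 and that of Meis3 was -0.0079. The mean score itself differed between the diets, so as a covariate it can take up part of a diet difference. In that fit 0 genes of the table passed in limma, and nothing is read from this loss. Pbx3, chosen for its place in the order, was again first there.

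The score also went with gene size, in bins whose limits were set after the values were seen. Of the genes measured, 5981 span under 15 kb and had a median r with the score of -0.345 and a median diet difference of 0.08. The 2301 genes that span over 100 kb had a median r of 0.408 and a median diet difference of -0.14. Pbx2 and Meis3, the short members, lay on the side of the short genes in both measures. Pbx3 had nearly the r of the long genes but a diet difference of -0.50, and Meis2, of the same span, had -0.0046. In batch 0 the medians were 0.05 for short and -0.07 for long genes, and in batch 1 they were 0.14 and -0.19.

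**Figure D5:**
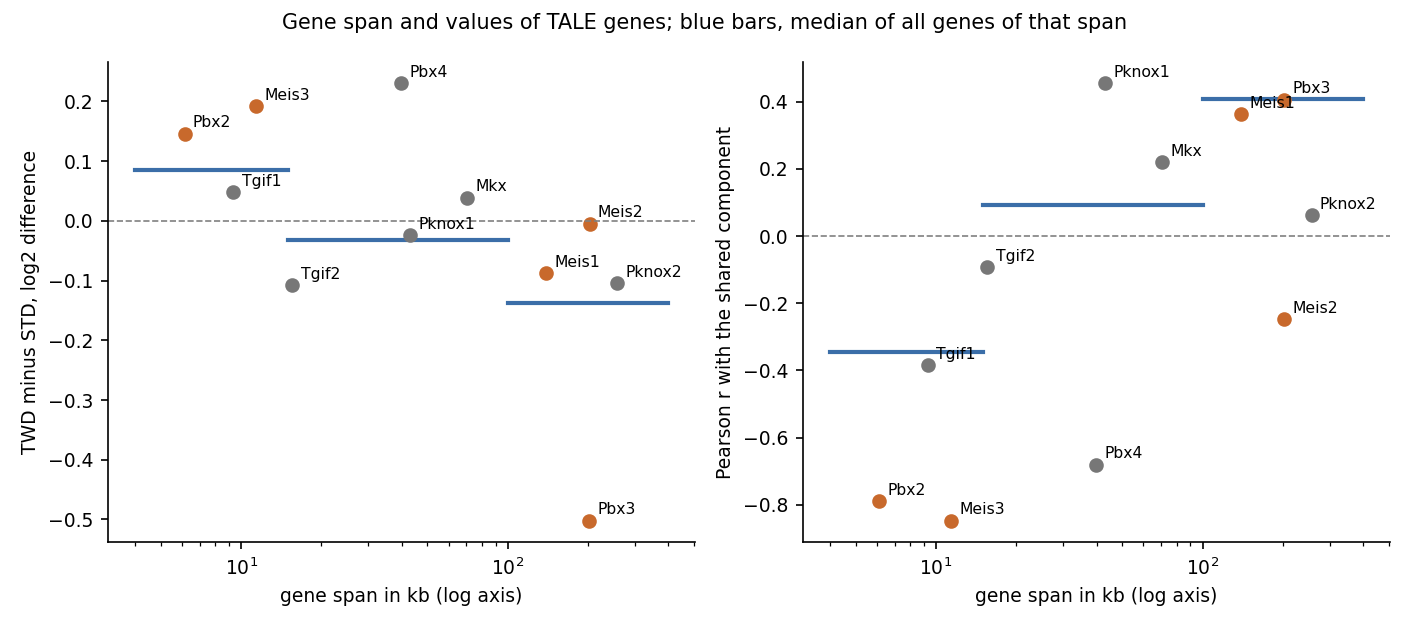
Gene span in kb (log axis) against the diet difference in log2 (left) and Pearson r with the shared component over 45 mice (right), for the members (orange) and the relatives named in the text (grey); blue bars are medians of all genes under 15 kb, of 15 to 100 kb and over 100 kb. Pbx2 and Meis3 stand at the short end with r of -0.790 and -0.847, and Pbx3 is the lowest point on the left at -0.50.

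Among the 10 pairs of members, 1 went together between mice of a group by a permutation test. Pbx2 and Meis3 gave r = 0.667 (rho = 0.605, 45 mice, permutation p = 2e-05, adjusted p = 0.0002), and r = 0.586 without the 2 mice farthest from the median of Pbx2. It was 0.496 in batch 0, 0.741 in batch 1 and -0.0064 once the shared score was removed. Pbx2 and Meis2 gave r = 0.413 (rho = 0.371, permutation p = 0.0101, adjusted p = 0.0505), and r = 0.314 without the 2 farthest mice. Pbx2 and Meis1 gave r = -0.386 (rho = -0.442, permutation p = 0.0181, adjusted p = 0.0603), and r = -0.370 without the 2 farthest. Neither passed, although the rho of Pbx2 and Meis1 did (permutation adjusted p = 0.0366). Pbx3 and Meis2 gave r = 0.257 (rho = 0.318, permutation p = 0.117, adjusted p = 0.233), with 0.402 without the 2 farthest mice, 0.775 in batch 0 and -0.0917 in batch 1.

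The members were also set against the mean standardised residual of 12 lists of cell type markers, in 60 relations. Pbx3 passed with none of them. Its largest r were 0.358 with mural and meningeal cells (rho = 0.294, permutation p = 0.0423, adjusted p = 0.128), -0.314 with microglia (rho = -0.333, permutation p = 0.0427, adjusted p = 0.128) and 0.297 with choroid plexus (rho = 0.255, permutation p = 0.0969, adjusted p = 0.208). Without the 2 farthest mice these were 0.305, -0.236 and 0.273. Choroid plexus markers come from tissue next to the hippocampus, and their mean level ran from 6.34 to 10.28 in STD mice and from 6.02 to 9.97 in TWD mice. On TWD, 15 of 15 of them lay below 0 with a median of -0.54 and 0 passed, and with their score as a covariate the diet difference of Pbx3 was -0.47 (SE 0.0840). Of other lists on TWD, 5 of 10 microglial markers were higher and 1 lower (median 0.22), and 4 of 10 of oligodendrocytes were higher (median 0.15). For interneurons, 4 of 10 were higher and 3 lower (median 0.05). Markers of astrocytes, of endothelial cells, of mural and meningeal cells, of pyramidal cells and of thalamus and habenula also passed, in both directions. In the lists of dentate granule cells and of immature neurons, the markers that passed were lower. Striatal markers are not given here. Beside these counts, 29.4% of all genes passed, 16.0% higher and 13.4% lower. The part of these cells in the diet difference of Pbx3 was not tested.

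Meis2 went with interneuron markers (r = 0.569, rho = 0.448, permutation adjusted p = 0.0149), with thalamus and habenula markers (r = 0.480, rho = 0.466, permutation adjusted p = 0.0198) and with pyramidal cell markers (r = 0.452, rho = 0.394, permutation adjusted p = 0.048). Meis3 went with microglia (r = 0.491, rho = 0.509, permutation adjusted p = 0.0149) and against dentate granule cells (r = -0.580, rho = -0.583, permutation adjusted p = 0.0149). Pbx2 went with interneurons (r = 0.598, rho = 0.577, permutation adjusted p = 0.0084) and against immature neurons (r = -0.483, rho = -0.473, permutation adjusted p = 0.0262). These 7 of 60 kept their sign in each batch, but 0 passed within a batch. Without the 2 mice farthest from the median of the member, r was 0.423 for Meis2 with interneurons, 0.454 with thalamus and habenula and 0.356 with pyramidal cells. It was 0.449 for Meis3 with microglia and -0.559 with dentate granule cells, and 0.529 for Pbx2 with interneurons and -0.429 with immature neurons. Once the shared score was removed, r was 0.0185 for Meis3 with microglia and -0.138 with dentate granule cells, and 0.530 for Meis2 with interneurons. For the other relations that r is not given here, and Pbx2 itself followed the score closely (r = -0.790).

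The genes whose residuals were most like those of Pbx3 over the 45 mice were Usp6nl (r = 0.657), Galnt7 (0.651), Maf (0.648), Itprid2 (0.638), Ntn4 (0.624), Cd164 (0.615), Ifih1 (0.614), Dbt (0.608), Hbp1 (0.590) and Slain2 (0.589). The least like were Trmo (-0.693), Bag5 (-0.647), Parp1 (-0.647), Haus7 (-0.633) and Rgcc (-0.628). They were chosen for these values, so they have no test. Among the 3 nearest to Pbx2 were Asic2 (0.851) and Nop2 (0.849). The 3 nearest to Meis1 were Pcmt1 (0.646), Usp25 (0.638) and Dusp22 (0.628), to Meis2 Epb41l3 (0.749), Sema6a (0.749) and Grik3 (0.742), and to Meis3 Rnf167 (0.896), Rundc3a (0.889) and Map2k2 (0.889). An absolute r over 0.5 was met with 46.7% of all genes for Meis3 and 41.6% for Pbx2, but with 7.05% for Meis2, 3.35% for Pbx3 and 0.503% for Meis1.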

How the data were processed

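PolyA RNA from the hippocampus of 45 mice was sequenced by the authors. Per their processing notes, the authors trimmed reads (Trimmomatic 0.38), took out ribosomal and mitochondrial reads (Bowtie2 2.2.3), quantified mm10 transcripts (kallisto 0.44.0) and summed them to genes. Genes over a minimum mean count were stabilised in variance by the authors with DESeq2 1.22.2, and batch was removed with limma 3.38.3. The deposited values are therefore log2-like. They carry no counts, so the depth of each mouse cannot be read from them and precision comes from the spread between mice. The mean of each batch was the same for every gene, and fits here kept batch as a covariate unless stated.

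Tests were two-sided and used limma 3.58.1 (R 4.3.3) with moderated variances that follow the mean, and p-values were adjusted by Benjamini-Hochberg over the 15897 genes (threshold 0.05). Genotype contrasts and the diet by genotype interaction came from a fit of 8 groups. An additive fit of genotype and diet gave the diet difference. The same additive fit with a diet by batch term gave the diet by batch interaction. Each mouse is a separate animal. Correlations used the residuals and 100000 permutations within group (seed 20), with pandas 2.3.3, scipy 1.17.1 and numpy 2.4.6 under Python 3.11.15. Symbols were found for 15695 genes in GENCODE M21. Scripts for tests were checked on simulated data. The members and lists were chosen with earlier results of these data known. Besides the members, genes named are TALE relatives, the gene after Pbx3 in the diet order, the nearest genes by r, App, Prnp, Cst7 and Mapt as label checks, and up to 4 genes of a list with the smallest p. Alternatives were batch, marker and component covariates, each batch alone, quantile normalization, fits of only the compared groups, variances without the mean trend, a filter on the mean at the 25th percentile, the letters that open a mouse label, Spearman correlation and leaving out each mouse. Some genes under these rules are not reported here.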

Additional observations from a re-analysis of the deposited data

Results flagged for a closer look

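In 40 sets of values (5 members by 8 groups), a mouse far from the rest of its group was found in 2. Chance alone gives about 1 in 20 sets, here about 2, so nothing is read from the count. Each of these mice was the highest of its group for Pbx2 on TWD. In A+T+/TWD, replicate 1 had 10.13 against 9.76 for the next mouse, a gap of 0.68 of the range of the group. In A+Tw/TWD, replicate 2 had 10.13 against 9.81, a gap of 0.675 of the range. Leaving out any 1 mouse kept the diet difference of Pbx2 between 0.13 and 0.16.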

How the results depend on the processing

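No paired analysis was possible because each library came from a separate animal and no animal was sampled on both diets. The diet difference of Pbx3 stayed between -0.55 and -0.41 over 10 alternatives and between -0.54 and -0.48 when each mouse was left out. Pbx3 was first in the order in 43 of 45 such fits. It was also first in all alternatives but the choroid plexus covariate (second) and batch 1 alone (1112th). Pbx3 was chosen for its place in this order and these fits share most of their mice. Nothing is read from the place or from how little the difference moved. With the component score as a covariate, the diet difference of Meis3 turned to -0.0079, its diet by batch term to -0.0828, its A+ difference to -0.0047 and the r of Pbx2 and Meis3 to -0.0064. In batch 0 alone the A+ difference of Meis1 was -0.14 and the T+ difference of Meis2 -0.0613, and in batch 1 alone the A+ difference of Pbx2 was 0.0201 and that of Meis2 in A+Tw mice on TWD 0.11. The A+ difference of Meis1 was also -0.0120 with the thalamus and habenula score, -0.0296 with quantile normalization and -0.0121 to 0.0375 with mice left out, and its T+ difference was -0.0137 with quantile normalization and -0.0146 to 0.0342 with mice left out. The cause was not tested. With Spearman correlation, 2 pairs and 11 list relations passed, with the component score removed 0 pairs, and within either batch 0 list relations. The filter on the mean removed Meis1 and Tgif1, so it gave no value for them. The mean component score differed between the diets, so nothing is read from diet calls lost with it. The diet contrast called 4678 genes, 6498 in batch 1 alone and 2768 to 5917 with 1 mouse left out. It called 0 in batch 0 alone and 0 with the component score. The calls of Pbx4, Hdac1, Emx1, Cdkn1a, Hif1a and Dcx were thus all lost there, and Pbx3 did not pass there either. In AwTw mice the diet contrast called 1487 genes, 2490 without batch in the fit, 3982 in batch 1, 2265 with the choroid plexus score, 2853 with the mean filter, 1 with the compared groups alone, and 0 in batch 0, with the component score, quantile normalization, the label letters or no mean trend. The A+T+ contrast on STD called 210 genes, 132 without A+T+/STD replicate 1 and 108 without A+T+/STD replicate 2. The A+ contrast called 599 genes, 184 in batch 0, 288 in batch 1, 346 with the mean filter and 1028 with the component score. The Pbxip1 call was lost in batch 0 and with the choroid plexus score (0.18, limma adjusted p = 0.128), the Hlf call in each batch alone, and the Tgif1 call in none of the alternatives that kept it. No member passed in a genotype contrast or interaction under any alternative. The depth of a mouse could not be read from these values.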
